A study of Mus musculus with 4 samples.

Results

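The 31 genes described here encode the semaphorins, a family of guidance proteins, and their plexin and neuropilin receptors. All 31 family genes on the list, 20 semaphorins, 9 plexins and 2 neuropilins, were found among the 39086 RefSeq genes placed on the chromosomes. Their CpG methylation was read in 2 brain regions of female CD-1 mice, an outbred wild-type stock, by Methyl-MiniSeq, a reduced bisulfite sequencing assay in which unmethylated cytosines are converted and methylated ones are not. E3 mice had been exposed in utero to estriol (E3), an estrogen made in large amounts in human pregnancy, through an osmotic pump implanted in the dam on gestation day 9 that delivered for 7 days (50 µl of 0.46 mg/ml). CT mice had dams whose pump held the vehicle DMSO. The labels give an age of 8 weeks, which may be that of the dams and not of the mice whose brains were sampled. They do not say whether a library came from 1 animal or from several.

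There was 1 library for each of hippocampus E3, hippocampus CT, frontal cortex E3 and frontal cortex CT. With no replicates, each test sets library against library and cannot be read as exposure against exposure. A member gene was taken from 1 kb before its RefSeq start to its end, and its promoter as 1 kb on each side of the start. In the hippocampus each strand of a CpG is a separate site, and 4545 of the 2226271 sites with at least 5 reads in both libraries lay in a member gene. The median depth at these sites was 26 reads in E3 and 9 reads in CT, and 53.3% of them had fewer than 10 reads in CT. In the frontal cortex the deposited values cover only the 9731 CpGs that the authors had called different, with the strands merged and the depth unknown. Of these, 26 were in a member gene.

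Semaphorins steer growing axons and migrating neurons, mostly by repulsion, and later act on dendritic spines and synapses. Class 3 semaphorins are secreted and bind neuropilins, which pass the signal to A plexins. Classes 4, 5 and 6 cross the membrane and class 7 is held by a lipid anchor, and most of them bind plexins directly. Plexins are GTPase-activating proteins for Ras-family GTPases, and they act on the cytoskeleton through CRMP proteins and MICAL enzymes.

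The stretches below are the reference DNA under the results that follow, read from GRCm38.p6 (the mm10 build) in the direction of the gene, 5′ to 3′, with each CpG in capitals. The Plxna2 stretch ends at the gene start (chr1:194619693-194619791, plus strand) and is shown because its 11 measured sites were all lower in E3. The Sema6b stretch (chr17:56124461-56124699, minus strand) and both Sema6c stretches (chr3:95172904-95172947 and chr3:95173181-95173288, plus strand) are coding DNA of the last exon, where most of the lower sites of these genes lay.
Plxna2 upstream: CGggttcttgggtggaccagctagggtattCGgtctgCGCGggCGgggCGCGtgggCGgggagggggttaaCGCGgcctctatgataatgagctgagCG
Sema6b last exon: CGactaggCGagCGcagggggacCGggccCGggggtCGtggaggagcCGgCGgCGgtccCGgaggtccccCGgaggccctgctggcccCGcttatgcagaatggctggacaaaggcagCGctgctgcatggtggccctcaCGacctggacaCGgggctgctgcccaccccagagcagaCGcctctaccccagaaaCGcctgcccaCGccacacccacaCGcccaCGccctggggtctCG
Sema6c last exon, first stretch: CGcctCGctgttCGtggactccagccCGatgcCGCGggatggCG
Sema6c last exon, second stretch: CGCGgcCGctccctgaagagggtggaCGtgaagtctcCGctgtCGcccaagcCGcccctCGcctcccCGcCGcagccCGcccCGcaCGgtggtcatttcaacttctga
These stretches hold 11 CpGs in 99 bases for Plxna2, 21 in 239 bases for Sema6b, and 7 in 44 and 13 in 108 bases for Sema6c.

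Single intronic CpGs are shown with 20 bases on each side because they were called in both tissues (Plxnd1, Plxnb2, Sema5a, Sema6d) or on both strands (Plxnd1, Sema3f). The Plxna4 stretch holds the 2 CpGs with the widest gap in the frontal cortex. The positions are chr6:115960226-115960267 (Plxnd1, minus strand), chr15:89174666-89174707 (Plxnb2, minus strand), chr15:32403336-32403377 (Sema5a, plus strand), chr2:124404186-124404227 (Sema6d, plus strand), chr9:107708517-107708558 (Sema3f, minus strand) and chr6:32398004-32398074 (Plxna4, minus strand).
Plxnd1 intron: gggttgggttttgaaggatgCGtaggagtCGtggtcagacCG
Plxnb2 intron: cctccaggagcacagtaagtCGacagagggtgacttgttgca
Sema5a intron: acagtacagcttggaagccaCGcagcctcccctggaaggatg
Sema6d intron: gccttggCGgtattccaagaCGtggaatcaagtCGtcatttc
Sema3f intron: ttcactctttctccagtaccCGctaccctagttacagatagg
Plxna4 intron: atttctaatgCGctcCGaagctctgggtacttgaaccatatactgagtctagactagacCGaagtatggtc
The CpG in question starts at base 21 of each of the first 5 stretches.

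In the hippocampus the guidance genes had unmethylated promoters and methylated bodies in both libraries. The mean level over 1062 promoter sites was 3.39% in E3 and 3.63% in CT, and over the 3483 sites in the rest of the genes 55.6% in E3 and 56.4% in CT. Promoter sites of all protein-coding genes averaged 6.49% in E3 and 6.66% in CT. Of the 24 member promoters with at least 5 measured sites, 19 were under 5% in both libraries when reads were pooled. The exceptions were Plxna3, an X-linked plexin (39.0% in E3 and 54.2% in CT), Sema6a (36.0% and 45.7%), Sema3e (13.8% and 15.7%), Plxnb2 (3.46% and 10%) and Plxnc1 (8.93% and 2.33%). Sema4a, with only 2 promoter sites, averaged 85.0% in E3 and 100% in CT. No promoter site was measured for Sema3a, Sema3b, Sema3g, Sema4c, Plxnb1 and Plxnb3. Bodies ranged from Sema4c (17.5% in E3 and 18.1% in CT over 157 sites), a transmembrane ligand of Plxnb2, to Plxna3 (93.1% and 97.8% over 17 sites).

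**Figure D1:**
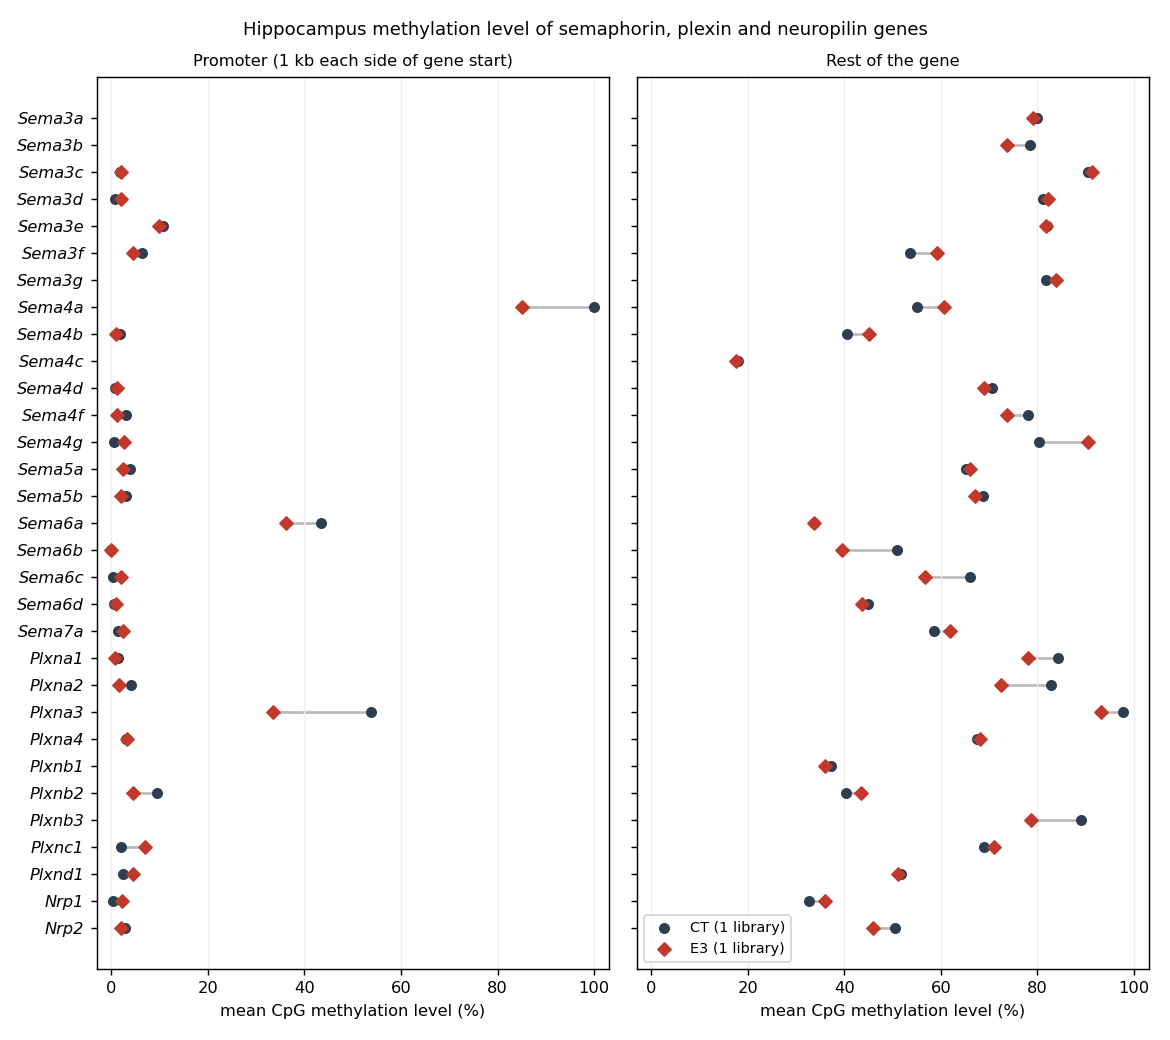
Mean CpG methylation level in percent (horizontal axis) of each member gene (vertical axis) in the hippocampus, for the promoter (left) and the rest of the gene (right), with 1 point per library. Most promoters sit near 0% (mean 3.39% in E3) and the bodies well above (mean 55.6% in E3), with Sema4c at 17.5% in E3 as the lowest body and Sema6b and Sema6c among the bodies lower in E3.

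Promoters were compared on pooled reads by Fisher's exact test, with p adjusted by Benjamini-Hochberg over all promoters, and called at an adjusted p under 0.05 and a gap of 10 points or more. None of the 24 member promoters was called. Of all 18369 promoters, 8.91% were. Before adjustment 8 member promoters had an exact p under 0.05 and after it 5 did, all with a gap under 10 points. Plxnc1, the receptor of Sema7a, was higher in E3 with 8.93% of 795 reads (95% Wilson interval 7.14 to 11.1%) against 2.33% of 386 reads (1.23 to 4.37%, adjusted exact p = 7.4e-05). The Sema6a promoter, with 16 sites, was 36.0% of 550 reads in E3 (32.1 to 40.1%) and 45.7% of 339 reads in CT (40.5 to 51.0%, adjusted exact p = 0.019). Plxna3 had the widest gap, 39.0% of 382 reads (34.2 to 44.0%) against 54.2% of 48 reads (40.3 to 67.4%), and its adjusted exact p was 0.14. Neighbouring sites share reads, so these intervals cover counting error only, as do all others here.

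Site by site, a CpG was called when Fisher's exact test gave an unadjusted p under 0.05 and the levels differed by at least 10 points. Of the 4545 member sites 258 were higher and 255 lower in E3, or 11.3%. In all protein-coding genes 9.84% of sites were called, 5.13% higher and 4.70% lower, so the whole family stood near the background. The calls came from partly methylated sites: 30.9% of member sites with a mean level of 10 to 90% were called, the same share as in all protein-coding genes, against 0.271% of those under 10%. Adjusted over all CpG sites, 165 member sites passed (3.63%). That share was not computed for other genes, so it has no background here. In promoters 7 member sites were higher and 29 lower of 1062, where 1.12% of protein-coding promoter sites were called higher and 3.44% lower. Coding exons had 77 higher and 84 lower sites of 1023, and introns 162 higher and 124 lower of 2324. The last coding exons of Sema6b and Sema6c alone held 26 and 33 of the called coding-exon sites. Shares for the coding exons and introns of all protein-coding genes were not computed, so these counts have no background here.

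The genes differed widely in their share of called sites, from 3.82% in Sema4c to 33.3% in Sema3b. Only 24 sites of Sema3b were measured, of which 4 were higher and 4 lower. The A plexins had 25 higher and 38 lower sites of 530, the B plexins 19 and 14 of 337, and the neuropilins 13 and 21 of 360. Class 6 had the largest share of the classes, with 49 higher and 98 lower sites of 933 (15.8%). Class 3 had 43 and 26 of 658, class 4 had 36 and 18 of 648, class 5 had 29 and 18 of 483, and Sema7a 6 and 3 of 137. Among the single genes, Plxnc1 had 28 higher and 6 lower sites of 265, while Plxna2 had 2 higher and 13 lower of 121 and Nrp2, the receptor of Sema3f, 9 and 21 of 263. Nrp1, the receptor of Sema3a, had 4 higher and no lower site of 97.

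**Figure D2:**
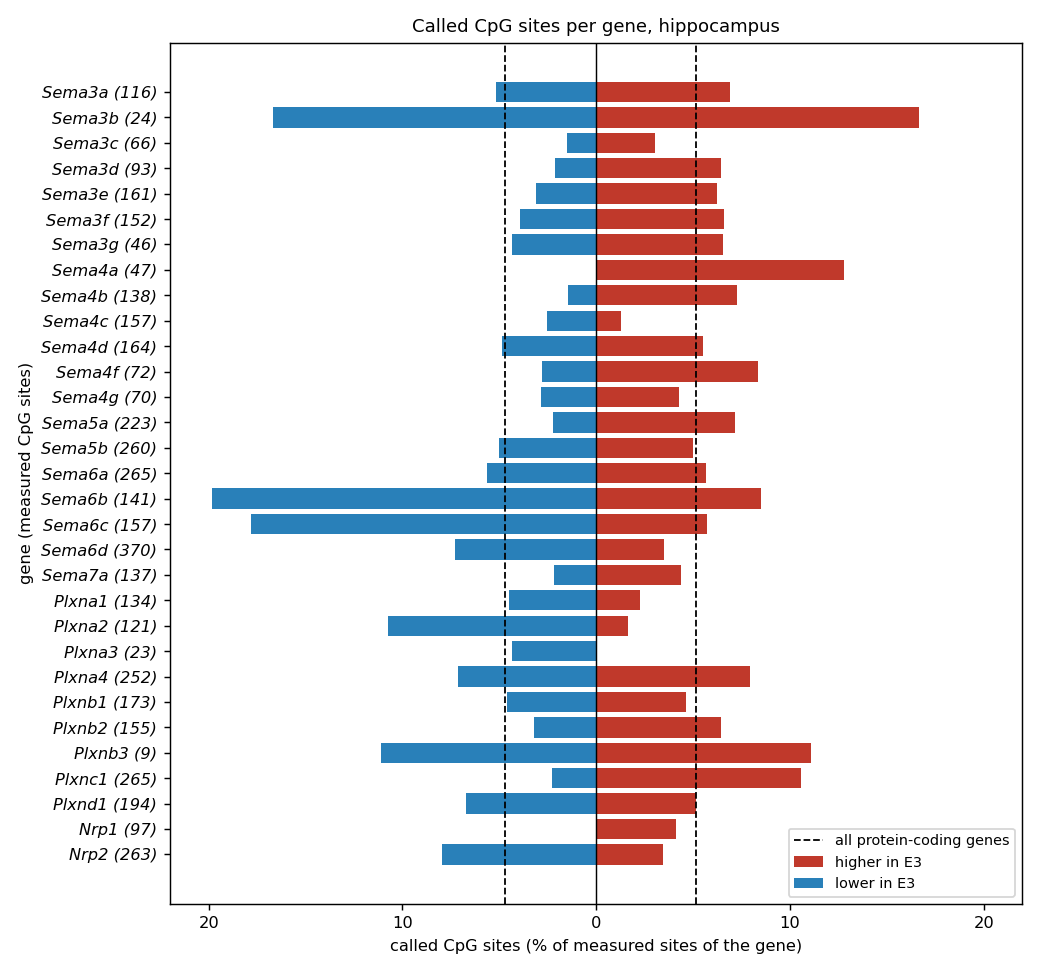
Share of the measured CpG sites of each gene (vertical axis, number of sites in parentheses) called higher in E3 (right) or lower in E3 (left), in percent of sites, hippocampus. Dashed lines mark all protein-coding genes (5.13% higher and 4.70% lower), and Sema6b and Sema6c reach furthest to the left with 28 lower sites each.

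Sema6b and Sema6c, transmembrane ligands of A plexins, had the largest called shares of the members with at least 100 sites. In Sema6b 12 sites were higher and 28 lower of 141 (28.4%), and in Sema6c 9 were higher and 28 lower of 157 (23.6%). Among the 5433 protein-coding genes with at least 100 measured sites the median share was 8.57%, and 18 genes were above Sema6b and 53 above Sema6c. In both genes the lower sites gathered in the last coding exon, which encodes the end of the cytoplasmic tail. That exon held 5 higher and 21 lower sites of 59 in Sema6b, and 7 higher and 26 lower of 87 in Sema6c. Outside it 7 sites were higher and 7 lower of 82 in Sema6b, and 2 and 2 of 70 in Sema6c. The last coding exons of the other class 6 genes held fewer measured sites and averaged above 90% in both libraries on each strand: none of 10 sites was called in Sema6a, and 1 was higher and 1 lower of 18 in Sema6d. In the 7 other members with measured sites there, 8 sites were higher and 5 lower of 48.

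The strands of these exons did not move alike. In the Sema6b exon the 27 plus-strand sites averaged 33.8% in E3 and 90.1% in CT, and 18 of them were lower in E3 and none higher. Its 32 minus-strand sites averaged 37.1% in E3 and 30.7% in CT, with 5 higher and 3 lower. In the CT library 21 of the 27 plus-strand sites were at 100% and 19 of the 32 minus-strand sites at 0%, from 6 to 18 reads on the plus strand and 5 to 12 on the minus strand. In the E3 library no site of this exon was at 100% and only 1 was at 0%, from 10 to 42 reads. At 4 neighbouring CpGs 15551 to 15570 bases from the gene start the calls were opposite: each was lower in E3 on the plus strand (11.1% of 18 reads against 100% of 8 reads) and higher on the minus strand (36.4% to 72.7% of 22 reads against 0% of 10 reads). Summed over both strands these 4 CpGs differed by 0.556 to -19.4 points, and none was called.

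The last coding exon of Sema6c had lower sites on both strands and higher sites on the minus strand. Its 43 plus-strand sites averaged 45.4% in E3 and 69.6% in CT, with 14 lower and none higher. Its 44 minus-strand sites averaged 53.6% and 57.2%, with 12 lower and 7 higher, and in the CT library 18 of them were at 100% and 13 at 0%, from 5 to 14 reads. The first stretch held 9 lower sites among 12 measured, 5 on the plus and 4 on the minus strand. At the CpG at 95172930 of chromosome 3 the E3 level was 6.25% of 32 reads on the plus strand and 31.6% of 38 reads on the minus strand, and the CT level 63.6% of 22 and 100% of 6 reads. The second stretch, with the untranslated bases just after it, held 15 lower sites in 2 neighbouring runs, and at the CpGs at 95173224 and 95173233 every CT read of both strands was methylated (18 reads each) against 38.5% of 52 and 44.0% of 50 reads in E3. At 2 other CpGs of the exon the calls were opposite, lower in E3 on the plus and higher on the minus strand. At 95172522 the plus strand had 46.2% of 26 reads in E3 and 100% of 10 in CT, and the minus strand 87.5% of 16 and 0% of 6. At 95173218 the plus strand had 23.5% of 34 reads in E3 and 100% of 8 in CT, and the minus strand 44.4% of 18 and 0% of 9. How many separate molecules gave the reads in the exons of Sema6b and Sema6c is not known, and its part in these values was not tested.

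**Figure D3:**
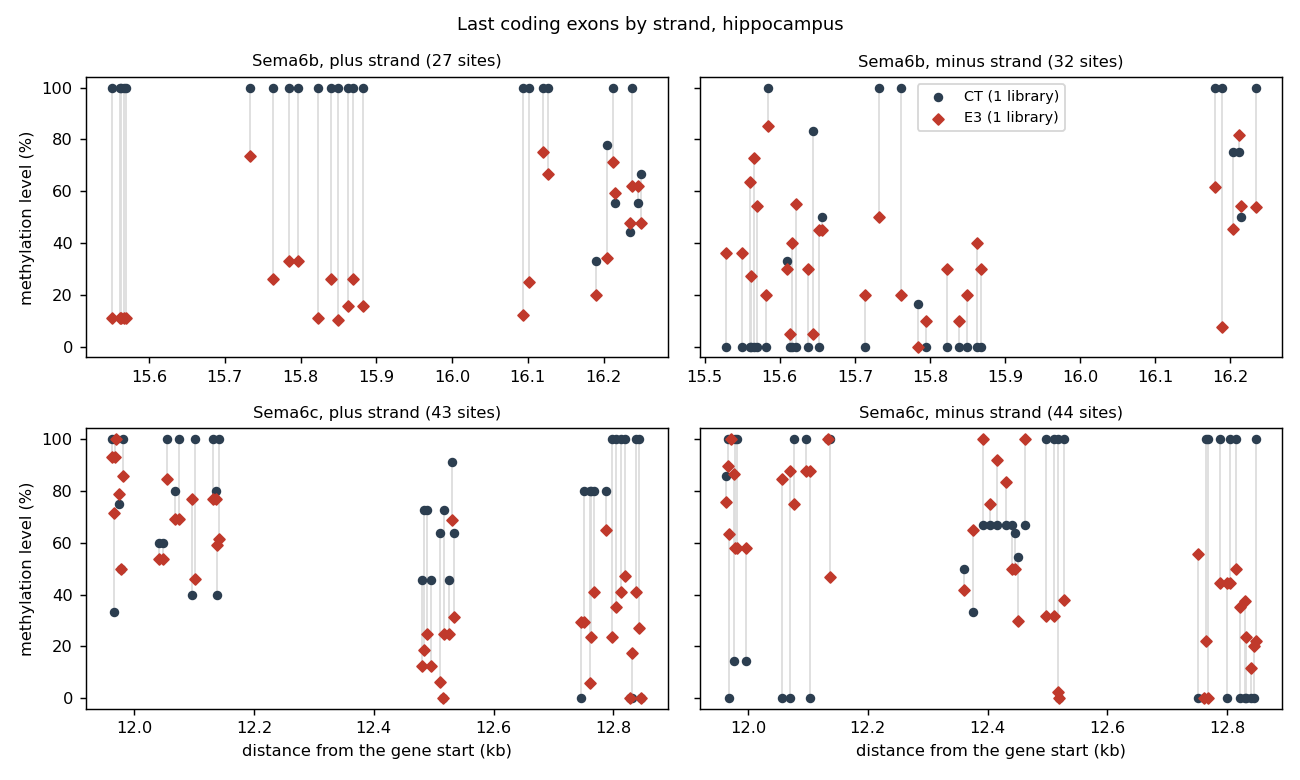
Methylation level in percent (vertical axis) of each measured CpG site in the last coding exon of Sema6b (top) and Sema6c (bottom) by distance from the gene start in kb (horizontal axis), with plus-strand sites at left and minus-strand sites at right, 1 point per hippocampus library. CT points of Sema6b lie at 100% for 21 of 27 plus-strand sites and at 0% for 19 of 32 minus-strand sites, while E3 points lie between 10.5% and 75% on the plus strand.

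Plxna2, a receptor of class 6 semaphorins, had the longest run of promoter calls. A run here is at least 3 called sites in 1 direction with at most 200 bases between neighbours. All 11 sites of the 99-base Plxna2 stretch were measured on the plus strand alone. In E3 every one of them was at 0% of 13 to 25 reads, and in CT they ranged from 33.3% to 50.0% of 6 to 12 reads. The exact p of the single sites ran from 0.0040 to 0.021, and none passed after adjustment over all CpG sites, with the lowest adjusted p at 0.090. The 11 sites lie on the same strand within 99 bases, so the same few methylated CT reads can underlie all of them. Their p-values and calls are therefore not separate observations. The other 105 promoter sites of Plxna2 averaged 1.68% in E3 and 0.461% in CT, with 1 site higher and 1 lower. This run supplied 11 of the 29 lower promoter sites of the family, and without Plxna2 the family had 6 higher and 17 lower promoter sites of 946. A single promoter site of Sema3f, chosen after its values were seen, had more reads: the minus-strand cytosine at 107709905 of chromosome 9, in the untranslated first exon, was methylated in 3.64% of 110 E3 reads (1.42 to 8.98%) and 66.7% of 18 CT reads (43.7 to 83.7%, adjusted exact p = 1.4e-06).

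In all 39 runs were found in 20 of the genes, 17 of higher sites and 22 of lower sites, and 19 of them held called sites on both strands. Runs were not counted in other protein-coding genes, so no background share stands beside these counts. Neighbouring sites can share reads, and the calls of a run are then not separate observations. Among the runs higher in E3, an intronic stretch of Plxnc1 held 5 higher sites of 8 measured. Its plus-strand sites averaged 86.7% in E3 and 8.57% in CT. The 3 minus-strand sites measured there averaged 83.4% in E3 and 93.3% in CT, and none was called higher. Sema4b, a transmembrane semaphorin, had 5 higher sites of 6 over an exon and the next intron, all at 0% of 5 to 9 reads in CT and between 42.3% and 89.3% of 10 to 28 reads in E3. Only the plus strand was measured in that run. Sema3f, which repels axons through Nrp2, had 4 higher sites of 8 within 336 bases of intron, from 1603 bases after the start on.

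Among the runs lower in E3, Plxna4, the receptor shared by class 3 and class 6 semaphorins, had 7 lower sites of 11 in an intron, all on the minus strand. Sema6d, a class 6 ligand, had an intronic run of 4 lower sites of 4 at 124651253 to 124651382 of chromosome 2. E3 averaged 3.57% there and CT 69.4%. These 4 sites were measured on the plus strand alone, with 9 to 18 reads in CT. Sema6d also had a wide run of 7 lower sites among 67, in which the means were 1.16% in E3 and 3.55% in CT. Plxnd1, the receptor of Sema3e, had 2 lower runs, one in a coding exon (58.7% in E3 and 91.7% in CT over 7 sites) and one in an intron (28.6% and 58.4% over 5 sites). In the intronic run the gap was on the plus strand, with 33.3% in E3 and 85.2% in CT over 3 sites. The 2 minus-strand sites there averaged 21.4% in E3 and 18.2% in CT. Sema3e itself had 3 lower sites of 5 in an intron, where E3 averaged 26.4% and CT 62.0%. All 3 calls were on the plus strand, which averaged 31.4% in E3 and 86.7% in CT. The 2 minus-strand sites there averaged 19.1% in E3, only a little below CT, and neither was called. Nrp2 had 3 lower intronic runs and 1 higher run, each with 3 called sites.

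Where both strands of a CpG were read, the direction of a call could be compared between them. Of the 1083 member CpGs read on both strands 212 were called on at least 1 strand, 184 on only 1. The call was the same on both for 19 (1.75% of the 1083), 7 higher and 12 lower in E3, and opposite for 9. In protein-coding genes 1.44% of such CpGs were called alike. With at least 10 reads on each strand in both libraries 343 CpGs were left, of which 6 were lower on both strands and none was higher. All 9 opposite CpGs were lower on the plus and higher on the minus strand, and 6 of them were in Sema6b and Sema6c.

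The 7 CpGs higher on both strands lay in plexins with 1 exception, the ligand Sema3f. How many CpGs read on both strands each family held was not counted, so no share per family stands beside this. In the Sema3f intron shown above the level was 72.9% of 48 reads in E3 (59.0 to 83.4%) and 0% of 15 reads in CT (0 to 20.4%, exact p = 3.1e-07). Plxna4 had 2 such CpGs, at 92.9% of 28 reads against 25% of 16 reads, and at 46.2% of 52 reads against 0% of 26 reads. Plxna1 was at 88.5% of 26 reads in E3 and 28.6% of 21 reads in CT, and Plxnb1, the receptor of Sema4d, at 83.9% of 56 and 31.2% of 16 reads in a coding exon. Plxnd1 was at 52.2% of 90 reads in E3 and 0% of 22 reads in CT (exact p = 1.2e-06).

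Of the 12 CpGs lower on both strands, 11 lay in semaphorins, again without a share per family to set beside it. Apart from 5 in Sema6c and 1 in Sema6b (24.1% of 29 reads in E3 and 100% of 12 reads in CT), they were in introns of Sema3a, Sema4d, Sema5a and Sema6d and in the last coding exon of Sema3b. The Sema5a CpG was at 38.8% of 67 reads in E3 (28 to 50.8%) and 89.3% of 28 reads in CT (72.8 to 96.3%, exact p = 4.3e-06). The Sema4d CpG was at 50.8% of 61 and 93.3% of 30 reads. The 12th was an intronic CpG of Plxnc1, at 57% of 158 reads in E3 and 100% of 22 reads in CT.

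**Figure D4:**
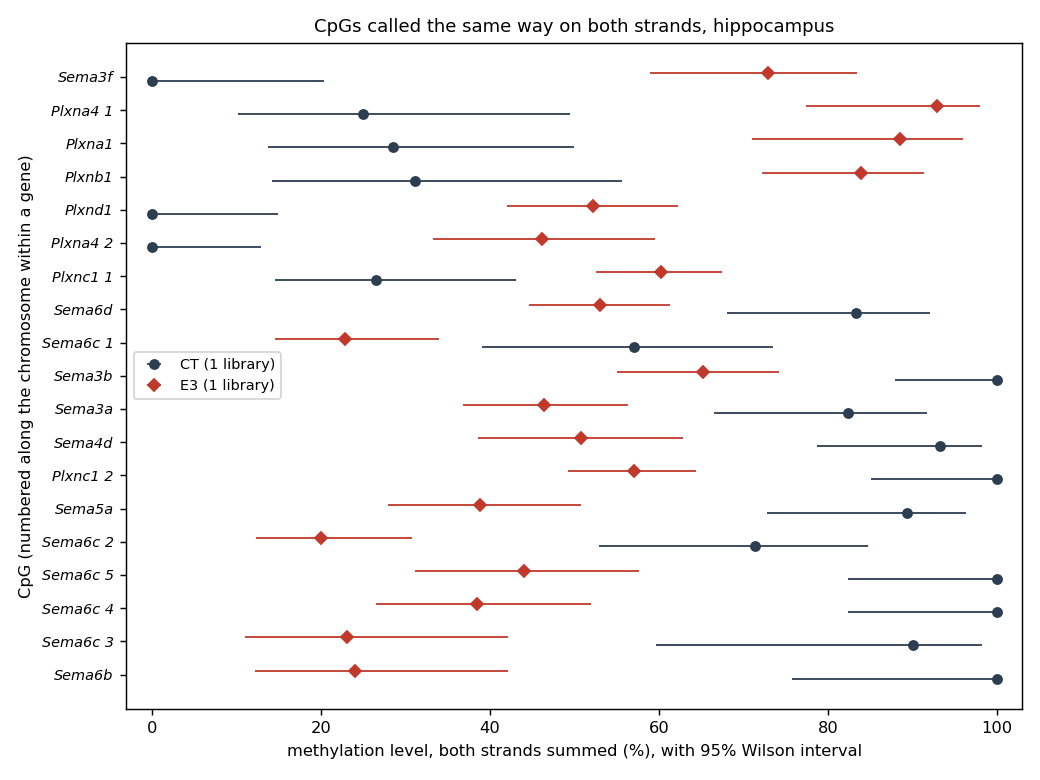
Methylation level in percent with its 95% Wilson interval (horizontal axis), both strands summed, of the 19 CpGs called alike on both strands (vertical axis, numbered along the chromosome where a gene has several), 1 point per hippocampus library. The top 7 are higher in E3, led by Sema3f with 72.9% against 0%, and the lower 12 are lower in E3, ending with Sema6b with 24.1% against 100%.

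In the frontal cortex 8 of the 26 called member CpGs were higher in E3 (30.8%) and 18 lower, where 32.1% of all called CpGs of genes were higher. They fell in 14 genes, and 17 members had none. The receptors had 2 higher and 10 lower CpGs and the semaphorins 6 higher and 8 lower. By the deposited annotation 5 were in promoters, 1 higher and 4 lower, and 20.1% of all called promoter CpGs were higher.

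Of the receptors, Plxna4 had 5 lower CpGs, more than any other member. In the intronic stretch shown above both outer CpGs were at 0% in E3 and at 77.8% and 60.6% in CT. Of its other CpGs one was at 0% in E3 and 55.9% in CT, one at 11.1% and 66.7%, and one, in the promoter island, at 0% and 17.6%. Plxnb1 was at 25% in E3 and 90.9% in CT, and Plxna1 at 47.4% and 100%. Nrp1 was lower in its promoter island, 54 bases into the gene, with 2.17% in E3 and 33.3% in CT, and Nrp2 was lower in an intron (5.88% and 42.9%). Plxnb2 had 0% in E3 and 17.6% in CT at a CpG that the deposited annotation calls promoter and that lies 7332 bases after the RefSeq gene start. Plxnd1 was the only receptor with higher CpGs: 38.4% against 2.70% near the gene start and 45.2% against 6.82% in an intron.

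Of the semaphorins, Sema6b was lower at 3 CpGs of its last exon, with 25% in E3 and 69.0% in CT, 17.6% and 43.1%, and 15.5% and 38.9%. Sema6c was higher at 2 CpGs of its last exon, with 41.4% in E3 and 0% in CT and, in the untranslated end, 44.3% and 16.7%. Sema5a had 3 lower intronic CpGs, of which 2 differed by 50 points or more (25% and 75%, 45.3% and 96.6%). Sema6d had 2 higher and 1 lower. Sema7a, the lipid-anchored member, had the widest gap of the higher CpGs, with 58.3% in E3 and 4.76% in CT in an intron. Sema5b was higher in an exon island (26.2% and 7.69%), and Sema4g, a class 4 semaphorin, was lower in its promoter (8.99% in E3 and 25% in CT).

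**Figure D5:**
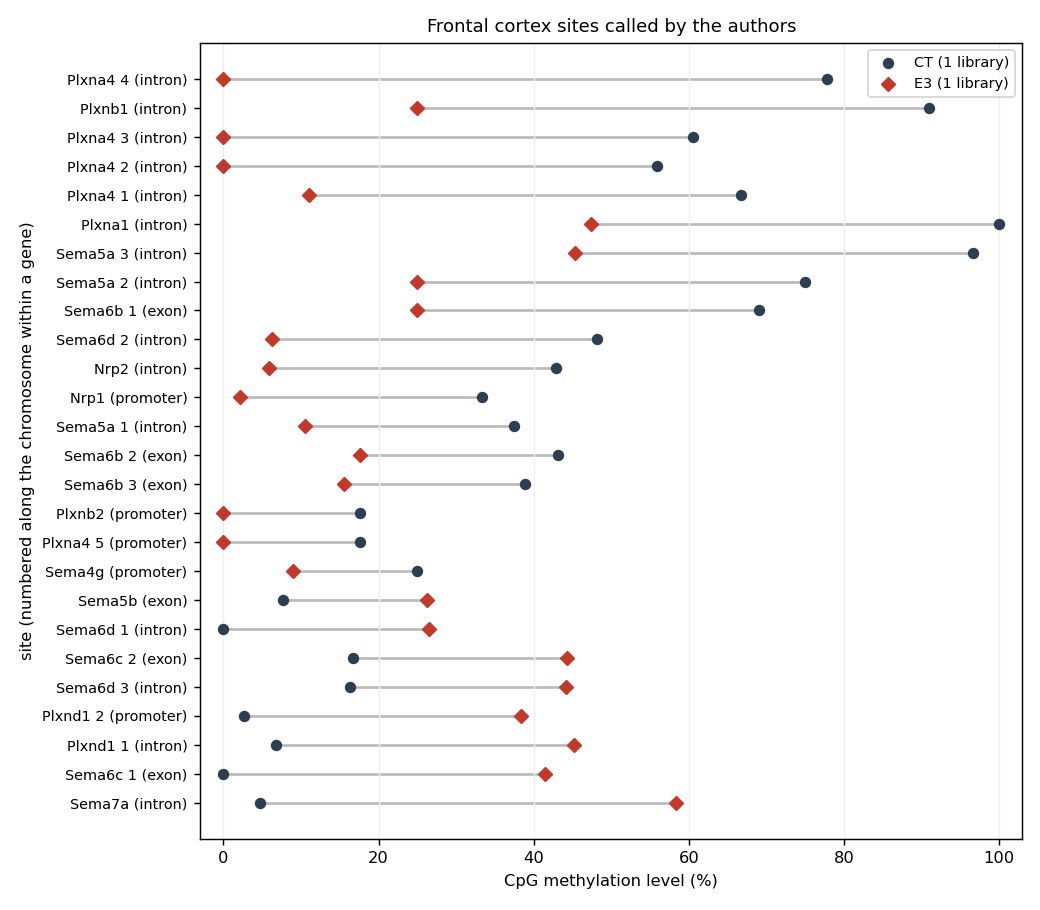
CpG methylation level in percent (horizontal axis) at the 26 member CpGs that the authors called in the frontal cortex (vertical axis, numbered along the chromosome within a gene, with the deposited annotation), 1 point per library. The upper 18 are lower in E3, from Plxna4 with 0% against 77.8% downward, and the lower 8 are higher in E3, ending with Sema7a with 58.3% against 4.76%.

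The hippocampus tables held 14 of these 26 CpGs. With the strands summed 5 of the 14 passed the call rule there, 3 in the same direction. The Plxnd1 intronic CpG was higher in E3 in both tissues, at 52.2% of 90 reads against 0% of 22 reads in the hippocampus. The Plxnb2 CpG was lower in both, at 0% of 22 reads in E3 and 60.0% of 10 reads in CT in the hippocampus (exact p = 0.00023), and so was the second Sema5a CpG, at 68.4% of 38 and 100% of 16 reads (exact p = 0.011). Beside that second Sema5a CpG, the minus-strand site at 32438150 of chromosome 15 was called the other way, higher in E3, in the hippocampus. It was methylated in most of 40 E3 reads (76.9 to 96.0%) and in 0% of 16 CT reads (adjusted exact p = 2.2e-07). The first Sema5a CpG and the Sema6d CpG shown above went opposite ways between the tissues. Sema5a was 50.0% of 62 reads in E3 and 0% of 14 reads in CT in the hippocampus but 10.5% and 37.5% in the frontal cortex. Sema6d was 16.2% of 37 reads in E3 and 71.4% of 14 reads in CT in the hippocampus but 26.5% and 0% in the frontal cortex.

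The 9 other shared CpGs were not called in the hippocampus, where CT had 5 to 8 reads at 8 of them and 51 at the third Sema5a CpG (95.7% of 186 reads in E3 and 92.2% in CT). Of the 3 Sema6b CpGs 2 were among them, at 20% of 10 reads and 40% of 20 reads in E3 and 0% of 6 reads each in CT, all from the minus strand. The Nrp1 promoter CpG was 7.69% of 13 reads in E3 and 0% of 6 reads in CT, and a level like the 33.3% of the frontal cortex was within the CT interval (0 to 39.0%). Over all 14, the sign of the difference was the same in both tissues for 4, the other for 7, and 3 did not differ in the hippocampus.

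Outside these families, 43 genes known for semaphorin signalling were taken as a list, of which 42 had measured sites in the hippocampus. The list holds other receptors and co-receptors as well as effectors inside the cell. Of their 5063 sites 250 were higher and 218 lower (9.24%), against 9.84% in all protein-coding genes, and in promoters 16 were higher and 75 lower of 2074, against 1.12% higher and 3.44% lower in all protein-coding promoters. Of those 75, 22 were in the promoter of 1 gene, Crmp1. The 5 genes with the largest called share were Kdr, a vascular growth factor receptor (13 higher and 6 lower of 101), Limk1, a kinase that acts on cofilin (8 and 13 of 126), Chl1, an adhesion molecule that binds Nrp1 (11 and 1 of 74), Fes, a tyrosine kinase of the Sema3a pathway (5 and 4 of 59), and Met, a partner of B plexins (10 and 7 of 126). Crmp1, which relays the Sema3a signal to the cytoskeleton and was picked after its values were seen, had 23 lower and no higher site of 171. Of these, 22 lay among the 81 sites of its promoter, 143 to 285 bases after the start, 6 on the plus and 16 on the minus strand. These 22 called sites averaged 0.583% in E3 (24 to 80 reads a site) and 24.0% in CT (14 to 46 reads a site). They were selected as called lower, so this gap partly follows from the selection. All 81 promoter sites averaged 1.95% in E3 and 7.79% in CT. After adjustment over all CpG sites 10 of the 22 passed. Sites this close can share reads, and their calls are then not separate observations.

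Outside CpG sites the member genes were methylated at a few percent. CHG sites (H stands for A, C or T) were methylated in 2.07% of 295892 reads in E3 and 2.55% of 103674 reads in CT, and CHH sites in 2.39% of 805871 and 2.72% of 279866 reads. All protein-coding genes had 2.11% and 2.17% at CHG and 2.34% and 2.57% at CHH sites. In each context 13 genes were higher and 18 lower in E3. Unconverted cytosines count as methylated here, and their share was not measured. In the frontal cortex the authors called 3 CHG sites in members, all lower in E3, and 27 CHH sites, 8 higher and 19 lower. Of all the sites they called in genes 19.3% were higher at CHG and 24.4% at CHH. Of the 27 CHH sites in members, 16 were at 0% in E3 and 6 at 0% in CT.

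Among the called member sites of the hippocampus, the lower ones lay in denser CpG than the higher ones. The window reaching 100 bases to each side of a called site held a median of 7 CpGs for lower and 5 for higher sites, and 6 and 5 without Sema6b and Sema6c. Uncalled member sites of 10 to 90% had a median of 5, and those under 10% had 18. These medians were not computed for other genes. In all protein-coding promoters too, more sites were called lower (3.44%) than higher (1.12%), and 11 of the lower member sites are the Plxna2 run.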

How the data were processed

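CpG, CHG and CHH methylation was read by Methyl-MiniSeq in 4 libraries, 1 per tissue and exposure. For the hippocampus the authors deposited, per strand and site, a methylated fraction (0 to 1, rounded to 2 decimals) and a count of total reads in both libraries, with at least 5 reads in each. For the frontal cortex the authors deposited only the sites they had called, with a methylated fraction per library and a gene annotation, without counts. Per the study's methods, trimmed reads of these libraries were mapped to mm10 with Bismark and the sites were read out with MethylDackel. The deposited p-values, adjusted p-values, differences and classes are the authors' own comparisons and were not used.

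Methylated reads were rebuilt as the fraction times the reads, rounded. The 2 hippocampus libraries were compared at each site with a two-sided Fisher's exact test, fitted over all sites and tested on simulated data, and called where the unadjusted p was below 0.05 and the levels lay 10 points or more apart. Benjamini-Hochberg adjustment over all sites was an alternative. Promoters with at least 5 sites were compared on pooled reads, with p adjusted over all promoters. Intervals are Wilson intervals at 95%. Genes, exons and sequences are from RefSeq on GRCm38.p6. Frontal cortex positions were those of the plus-strand cytosine. Member counts are given for every gene. The single sites named are the frontal cortex sites in promoters, those with a difference of at least 50 points or those also measured in the hippocampus, CpGs called alike on both strands, runs, and promoters with a pooled difference of at least 10 points. In the signalling list the 5 genes with the largest called share among those with at least 20 sites are named. The Sema3f promoter site and Crmp1 are marked as picked after their values were seen. Some others outside these rules were named with their values known and are not marked. They are frontal cortex CpGs of Nrp2, Sema5b, Sema6b and Sema6c, and the Sema6a, Sema6b and Sema6c CpGs with opposite calls on their strands. So are the Plxnd1 and Sema5a sites that lie beside a named run or CpG. Promoters with a smaller pooled difference, such as those of Plxnc1 and Sema6a, are also among them. The members and lists were chosen with earlier results of these data known. The tools were numpy 2.4.6, pandas 2.3.3, scipy 1.17.1 and numba 0.67.0.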

Additional observations from a re-analysis of the deposited data

Results flagged for a closer look

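At 2 intronic CpGs the difference between E3 and CT had opposite directions in the 2 tissues. The Sema5a CpG differed by 50.0 points (E3 minus CT) in the hippocampus and by -27.0 points in the frontal cortex. The Sema6d CpG differed by -55.2 points in the hippocampus and by 26.5 points in the frontal cortex. Each tissue had 1 library per exposure and the frontal cortex has no read numbers, so the difference between the tissues was not tested.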

How the results depend on the processing

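No paired analysis was possible because each group had 1 library, and for the same reason no library could be left out. The CT library, with a median of 9 reads at member sites, sets what could be called: a gap has to be wide to pass at such depth. The hippocampus count of 513 called member sites became 295 of 2070 with at least 10 reads in both libraries, 67 of 469 with at least 20 reads, and 165 after adjustment over all CpG sites. It stayed within 1.5 times with the strands summed, a difference of 25 points, differences of 90 points or more left out or chromosome X left out (439 to 510), and was 454 without the last coding exons of Sema6b and Sema6c, an alternative chosen after seeing the data. The 36 called promoter sites became 78 of 1853 around the starts of all RefSeq transcripts, 10 of 124 with at least 20 reads, and 23 without Plxna2, which was also chosen after seeing the data. Of the 24 member promoters none was called on pooled reads, where Plxna3 lay past 10 points with an adjusted p of 0.14 from Fisher's exact test, and the mean of site levels, which has no test, also put 1 promoter, Plxna3, past 10 points. The 19 CpGs called alike on both strands became 6 with at least 10 reads per strand. The signalling list had 281 called sites with at least 10 reads in place of 468. The difference of the promoter level, -0.236 points, was -0.590 with at least 10 reads and -0.0608 with the level pooled over reads, and that of the rest of the genes, -0.797, was -0.594 with at least 10 reads and 1.14 with the level pooled over reads, so its sign rests on the weighting. As means of site levels the CHG difference was -0.212 in place of -0.488 points and the CHH difference -0.161 in place of -0.331. Of 240 called sites read on both strands, 152 were called alike when the strands were summed, 79 kept the sign but were not called and 9 changed sign without being called. The frontal cortex count of 26 was 21 at a difference of 25 points and stayed 26 with genes taken from RefSeq positions. The frontal cortex count by the deposited adjusted p was not run, because those values are the authors' own comparison.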
